A study of Rattus norvegicus with 6 samples.

Results

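Chaperones and protein folding enzymes were examined in 3 rat esophageal tumor cell lines. They were chosen by gene symbol alone: heat shock proteins (Hsp), J-domain proteins (Dnaj), subunits of the chaperonin CCT, protein disulfide isomerases (Pdia), the immunophilin families Fkbp and Ppi, calreticulins, BAG proteins and Hyou1. Of 3158 named genes on the array, 35 met the rule. The rule also covered calnexin, Stip1, St13 and the Ero1 oxidases, which gave no member. The lines JA, JB and Amy came, per the labels, from esophageal tumors that reflux had induced, and the control on every array was 1 pool, an equal mixture of the normal esophageal cell lines Normal1 and Normal2. Each line was cohybridized with the pool on 2 two-colour cDNA arrays, with the line in Cy3 on the first and in Cy5 on the second. The labels name no separate cultures, passages or animals, so each line is 1 sample, and a p-value here reflects how 3 lines scatter, which may be technical. Values are log2 ratios of tumor line over normal pool, a direction taken from the order of names in the sample titles; it is likely rather than settled, and turning it would exchange higher and lower throughout. Errors are SDs over the 3 lines.

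Chaperones bind unfolded proteins and release them through cycles of ATP hydrolysis. Hsp70 proteins act with J-domain proteins, which deliver substrates and stimulate ATP hydrolysis, and with nucleotide exchange factors; Hsp90 and the barrel-shaped CCT complete the folding of kinases, receptors, actin and tubulin. The endoplasmic reticulum (ER) holds its own Hsp70 and Hsp90 system, lectin chaperones for glycoproteins and disulfide isomerases, while mitochondria use a separate chaperonin. Peptidyl-prolyl isomerases turn the bonds before proline and include the targets of the drugs cyclosporin and FK506. Heat shock factors raise the cytosolic set when proteins unfold there, and the unfolded protein response raises the ER set.

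The 35 members were covered by 56 clones, each printed as a pair of spots, and 12 members had several clones; the values of a gene are means over its spots. Array medians over all spots lay between -0.05 and -0.15. On each array 86 to 166 of the 16128 spots shared 1 exact value, and other repeated values lay exactly 1 or 0.585 from it, the base-2 logarithms of 2 and of 3 over 2, so the values are base-2 logarithms. Of the squamous epithelial markers only galectin-7 (Lgals7) was measured, of 14 listed symbols, and it was lower in the tumor lines at -5.82 ± 1.01, so the epithelial identity of the lines was not checked further here. All 7 measured fibroblast markers were lower in the tumor lines (means -9.00 to -1.73), where 32.0% of named genes were. Of 7 leukocyte markers 6 were called lower and Tyrobp was higher, but only 5 were below 0 on all 6 arrays. Cd53, called lower at -0.48 ± 0.20, averaged 0.73 over the Cy3 orientation and -1.68 over the Cy5 orientation. Both measured muscle markers were lower too. The part of such other cell types in the chaperone ratios was not tested, and fewer cells of a type cannot be told apart from less RNA per cell.

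As a group, the folding genes were divided. Of 35 members, 10 rose, 10 fell and 15 missed the threshold (limma on the means of the 3 lines, Benjamini-Hochberg adjusted p under 0.05 over 7180 features). That is 28.6% of members higher and 28.6% lower, against 23.1% higher and 32.0% lower over all named genes, or 20.7% and 32.8% over all features. In either direction 57.1% of members were called, against 55.1% of named genes and 53.5% of all features, so the share called is near the background. The counts varied with the lines entered: without JA, 3 members were higher and 7 lower, without JB, 9 and 10, and without Amy, 6 and 7. A fit with a line left out rests on fewer values, so a call can end with little change in the ratio. Calr3 lost its call without JA although its mean was -0.4596, against -0.4588 with all 3 lines. The median log2 ratio of the members was 0.08, against -0.06 for all named genes and -0.12 for all features; without JA it was -0.19. Their ratios were also of ordinary size, with a median absolute log2 ratio of 0.50, against 0.53 for named genes. Changes of at least 1 on the log2 scale were seen for 3 members above the pool (Ppia, Hspd1 and Cct6a) and for 5 below it (Pdia5, Dnaja4, Dnajc22, Bag6 and Dnajc15), or 8.57% and 14.3%, against 7.88% and 15.8% of named genes.

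**Figure D1:**
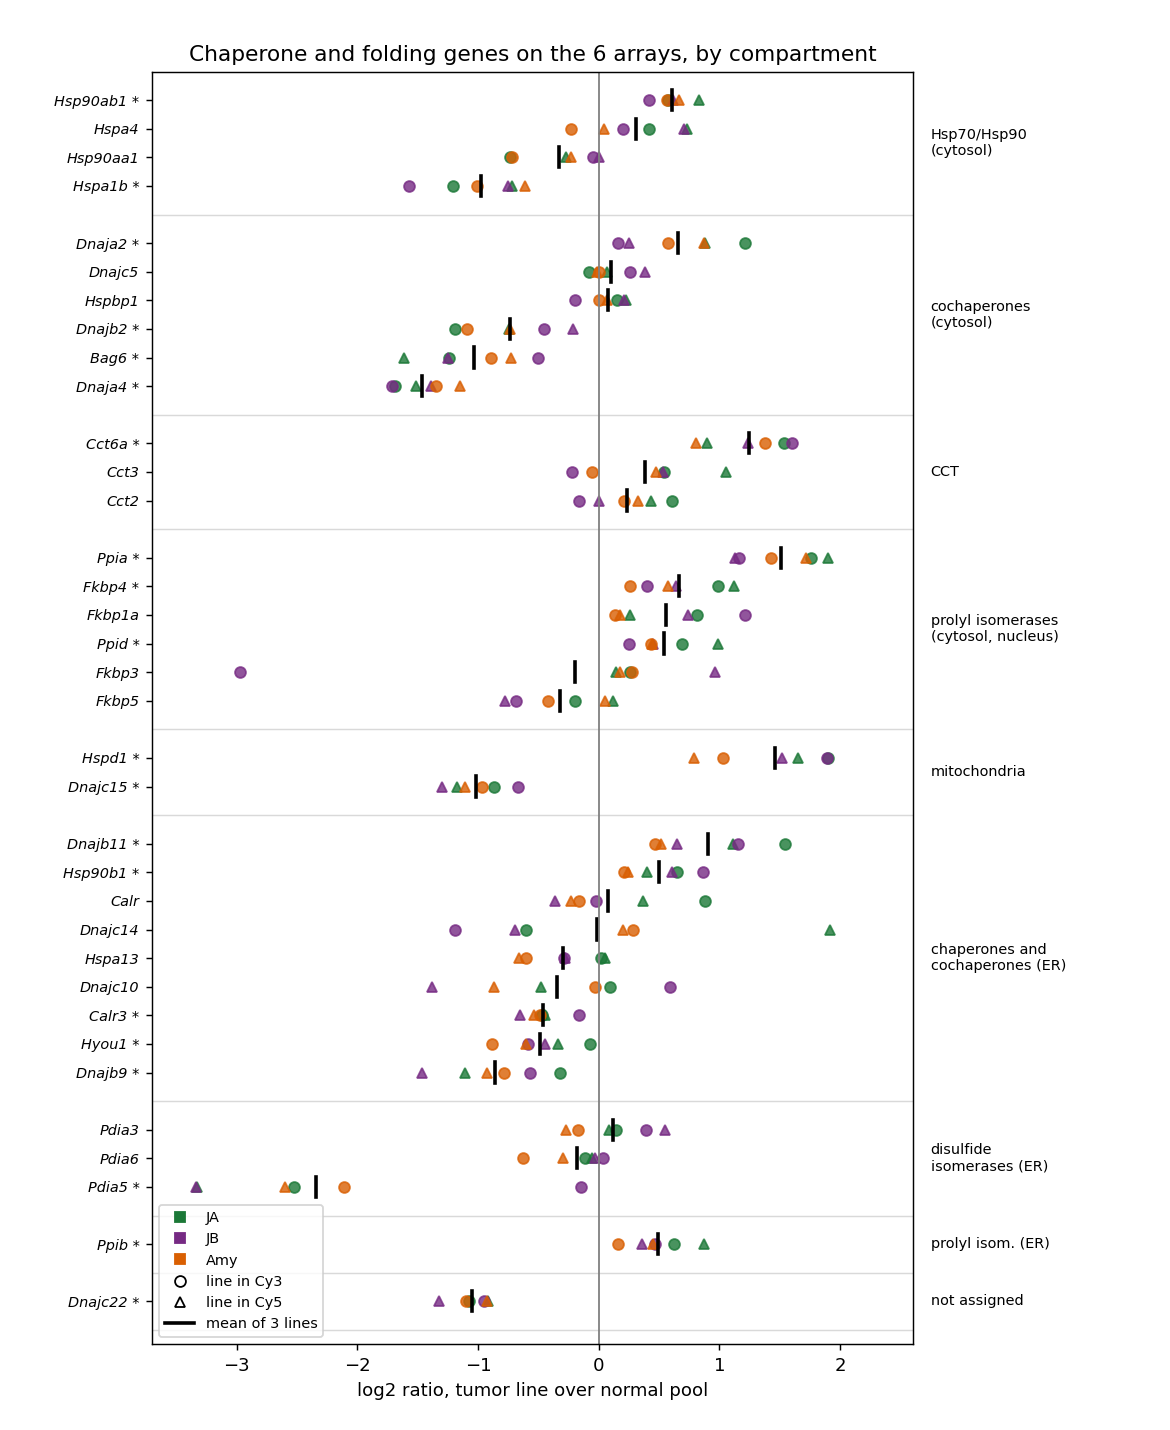
Log2 ratio of tumor line over normal pool (x axis) for the 35 members, grouped by compartment; colours are the lines, circles mark Cy3-labelled and triangles Cy5-labelled tumor RNA, black bars the means of the 3 lines, and asterisks mark members that passed the test. Prolyl isomerases and CCT lie mostly to the right of 0, cochaperones and ER chaperones on both sides, and Pdia5 has a single array near 0.

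The highest ratio belonged to a prolyl isomerase of the cytosol. Cyclophilin A (Ppia), the abundant cellular target of cyclosporin, stood at 1.76 and 1.90 in JA, 1.16 and 1.13 in JB, and 1.42 and 1.71 in Amy (line in Cy3 first, here and below). The mean was 1.51 ± 0.34 (adjusted p = 0.00194), or 2.86-fold, and all 6 arrays lay above 1. Its 3 clones gave 1.53, 1.52 and 1.49, although the cDNA of a gene with many processed copies in the genome may also bind related transcripts. Among the other isomerases of the cytosol and nucleus, Fkbp4, an Hsp90 cochaperone of steroid receptors, rose to 0.66 ± 0.34 (adjusted p = 0.0224) and cyclophilin D-40 (Ppid), another Hsp90 partner, to 0.54 ± 0.26 (adjusted p = 0.0278). With JA left out neither was called (adjusted p = 0.0938 for Fkbp4 and 0.126 for Ppid), nor with Amy left out (0.0509 and 0.0836). Fkbp1a, the receptor of FK506, was above 0 on all 6 arrays at 0.55 ± 0.41 and just missed the threshold (adjusted p = 0.0532); it passed with each array centred on its median (0.0284) and with dye orientation as a block, which counts the 2 arrays of a line separately (0.0165, or 0.0413 with line as a random block besides). The lowest of the group was Fkbp5, a glucocorticoid-induced Hsp90 cochaperone that works against Fkbp4 at the receptor: -0.19 and 0.12 in JA, -0.69 and -0.78 in JB, and -0.42 and 0.05 in Amy. It did not pass, at -0.32 ± 0.37 (adjusted p = 0.174), and JB was its lowest line in both dye orientations. The group of 6 thus had 3 higher, none lower and a median of 0.55, where 23.1% of named genes were higher and 32.0% lower; at an unadjusted p under 0.05 there were also no lower members in limma.

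Chaperonin CCT assembles from related subunits, of which 3 were members. Cct6a was clearly higher, at 1.53 and 0.89 in JA, 1.60 and 1.23 in JB, and 1.38 and 0.80 in Amy, with a mean of 1.24 ± 0.16 (adjusted p = 0.00157), or 2.36-fold, and 2 clones at 1.44 and 1.04. The other two subunits were closer to the pool. Cct3 averaged 0.39 ± 0.36 (adjusted p = 0.11), with 0.09 over the Cy3 orientation and 0.69 over the Cy5 orientation. Fitted with dye orientation as a block, Cct3 passed (adjusted p = 0.0373), but not with line as a random block besides (0.0666). Cct2 stood at 0.61 and 0.43 in JA, -0.16 and 0.00 in JB, and 0.21 and 0.33 in Amy, with a mean of 0.24 ± 0.30 (adjusted p = 0.247). Its JA arrays were the highest and its JB arrays the lowest, but its 2 clones averaged -0.06 and 0.54. Only the clone at 0.54 held this order in both dye orientations. The other read 0.12 and -0.11 in JA, -0.29 and 0.11 in JB, and -0.11 and -0.10 in Amy. A further subunit, Tcp1, whose symbol the rule does not match, rose to 0.64 ± 0.30 (adjusted p = 0.0206). Prefoldin hands actin and tubulin to this chaperonin. Of its subunits Pfdn6 rose to 0.42 ± 0.19 (adjusted p = 0.0448), while Pfdn2 at 0.29 ± 0.22 (adjusted p = 0.129) and Pfdn1 at 0.01 ± 0.45 (adjusted p = 0.971) did not pass.

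Of the cytosolic Hsp70 and Hsp90 proteins, the constitutive Hsp90 rose and a stress-inducible Hsp70 fell. Hsp90ab1, which is made without stress, stood at 0.57 and 0.83 in JA, 0.41 and 0.62 in JB, and 0.57 and 0.67 in Amy. Its mean was 0.61 ± 0.09 (adjusted p = 0.00949), with the 3 lines within 0.19 of each other and 4 clones between 0.30 and 0.90; it was not called with JA left out (adjusted p = 0.0661) or with Amy left out (0.0512). Hspa1b, the heat-inducible Hsp70, stood at -1.20 and -0.72 in JA, -1.57 and -0.75 in JB, and -1.01 and -0.61 in Amy. All 6 arrays were below 0, the mean was -0.98 ± 0.18 (adjusted p = 0.00316), and the pool exceeded the lines 1.97-fold. The Cy3 arrays lay lower (-1.26) than the Cy5 arrays (-0.69). Hspa1b has a near-identical neighbour, Hspa1a, which a cDNA spot is unlikely to separate. Hspa4, an Hsp110-type exchange factor, stood at 0.31 ± 0.35 and did not pass (adjusted p = 0.175).

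The inducible Hsp90, Hsp90aa1, averaged -0.33 ± 0.27 (adjusted p = 0.113), but its 4 clones disagreed by more than any other member's. One clone stood at -1.58 and was below 0 on every array, from -3.28 to -0.71, while the other three gave -0.10, 0.18 and 0.17. The clone at 0.18 ranged from -1.32 to 2.22 and had at least 1 spot at a value shared by at least 10 spots of the array on 5 of the 6 arrays. Hsp90aa1 passed without JB (adjusted p = 0.0409) and with dye orientation as a block (0.0396), but not with line as a random block besides (0.0998).

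**Figure D2:**
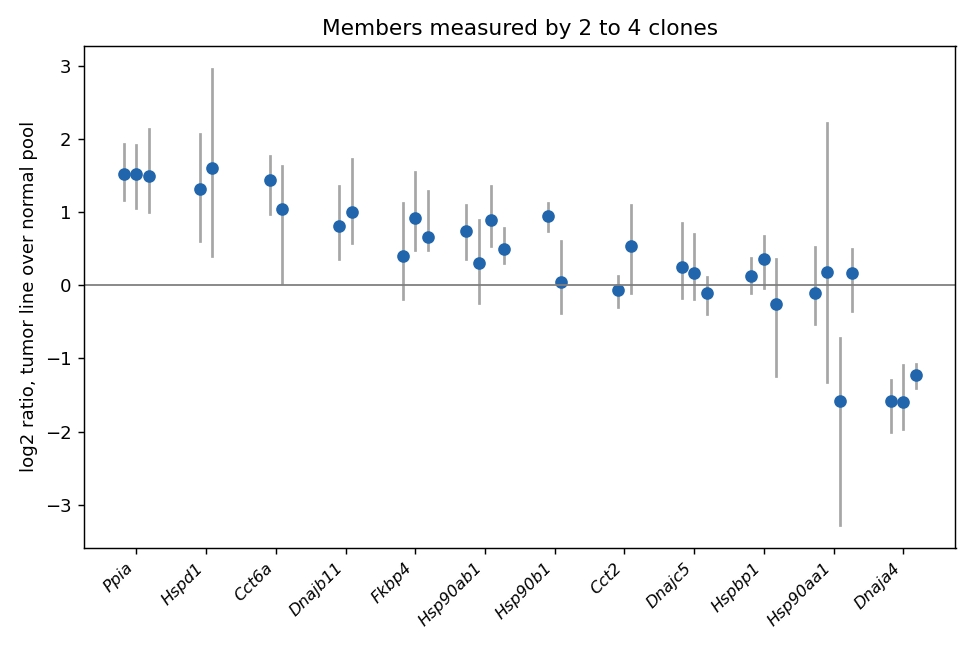
Mean log2 ratio (y axis, points) and range over the 6 arrays (grey lines) of each clone for the 12 members with 2 to 4 clones. The 3 clones of Ppia coincide near 1.5, the 3 of Dnaja4 lie between -1.59 and -1.23, and a single Hsp90aa1 clone at -1.58 stands apart from the other three.

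Of the cochaperones of the cytosol, 1 of 6 was higher and 3 were lower, where 23.1% and 32.0% of named genes were, and the median was -0.33. Lowest was Dnaja4, a type I J-domain partner of Hsp70: -1.69 and -1.51 in JA, -1.71 and -1.39 in JB, and -1.35 and -1.15 in Amy. Its mean was -1.47 ± 0.19 (adjusted p = 0.00108), so the pool exceeded the lines 2.76-fold, and its 3 clones gave -1.58, -1.59 and -1.23. The related Dnaja2 went the other way. It stood at 1.21 and 0.88 in JA, 0.16 and 0.25 in JB, and 0.57 and 0.87 in Amy, with a mean of 0.66 ± 0.42 (adjusted p = 0.0343) and lower values in JB than in the other lines; the call ended with JA left out (adjusted p = 0.162) and with Amy left out (0.136). The values of Bag6, which guards exposed membrane segments of newly made proteins, were -1.24 and -1.61 in JA, -0.50 and -1.25 in JB, and -0.89 and -0.73 in Amy. Its mean of -1.04 ± 0.34 (adjusted p = 0.00545) passed without any 1 of the lines, and JA was lowest in both dye orientations. Dnajb2, a chaperone with ubiquitin-interacting motifs best known from neurons, fell to -0.74 ± 0.35 (adjusted p = 0.0168), a call that ended with JA left out (0.105) and with Amy left out (0.0901). The exchange factor Hspbp1 and the vesicle protein Dnajc5 stood at 0.08 ± 0.10 and 0.10 ± 0.19 and did not pass.

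Only 2 members act in mitochondria, and they were on opposite sides. Hspd1 (Hsp60), the mitochondrial chaperonin, stood at 1.90 and 1.65 in JA, 1.89 and 1.52 in JB, and 1.03 and 0.79 in Amy. It was higher on all 6 arrays, with a mean of 1.46 ± 0.48 (adjusted p = 0.00384), or 2.76-fold, and Amy was the lowest line by 0.79 or more. Its 2 clones gave 1.32 and 1.60. Dnajc15, a J-domain protein of the inner membrane linked to protein import, stood at -0.87 and -1.17 in JA, -0.67 and -1.30 in JB, and -0.97 and -1.11 in Amy. The 3 line means of Dnajc15 spanned 0.053, and the mean of -1.02 ± 0.03 (adjusted p = 0.00193) passed without any 1 of the lines.

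In the ER, 3 of 13 members rose and 4 fell, 6 missed the threshold, and the median was -0.18. Both counts are near the shares over named genes (23.1% higher, 32.0% lower). The Hsp40 Dnajb11 (ERdj3), a cofactor of the ER Hsp70 BiP that binds unfolded clients, was the highest: 1.54 and 1.11 in JA, 1.15 and 0.65 in JB, and 0.46 and 0.52 in Amy. Its mean was 0.91 ± 0.42 (adjusted p = 0.0123) and its clones stood at 0.82 and 0.998; JA was highest and Amy lowest in both dye orientations, and without JA the call was lost (adjusted p = 0.0657). Hsp90b1 (Grp94), the Hsp90 of the ER, averaged 0.50 ± 0.26 (adjusted p = 0.0356), but 1 clone stood at 0.95 and the other at 0.04, and the call was lost without JA (0.149) or JB (0.105). The third, cyclophilin B (Ppib), stood at 0.62 and 0.87 in JA, 0.47 and 0.36 in JB, and 0.16 and 0.45 in Amy. All 6 arrays were above 0, and the mean of 0.49 ± 0.23 (adjusted p = 0.0328) was no longer called without JA (0.149) or Amy (0.0682).

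Below the pool, beside Pdia5, were Dnajb9 (ERdj4), which guides misfolded proteins to degradation, Hyou1 (Grp170), an exchange factor of BiP, and Calr3, a calreticulin known from testis. Dnajb9 stood at -0.32 and -1.11 in JA, -0.57 and -1.47 in JB, and -0.79 and -0.92 in Amy. Its mean was -0.86 ± 0.15 (adjusted p = 0.00406), and each line was lower on the Cy5 array. Hyou1 averaged -0.49 ± 0.27 (adjusted p = 0.0401), with Amy lowest and JA closest to 0; leaving out any 1 of the lines ended the call (adjusted p = 0.0604 without JA, 0.0792 without JB and 0.170 without Amy), as did centring the arrays (0.0855). Calr3 stood at -0.46 ± 0.05 (adjusted p = 0.0211) and lost its call without JA (0.0964) or Amy (0.0939). That SD is over line means, and its JB arrays read -0.17 and -0.65. The call also ended in Cy3 only (adjusted p = 0.08) and without the JB array in Cy5 (0.0868). Calreticulin itself (Calr) averaged 0.08 ± 0.47 (adjusted p = 0.762), Hspa13 -0.29 ± 0.33, the reductase Dnajc10 (ERdj5) -0.35 ± 0.14 and the membrane protein Dnajc14 -0.01 ± 0.83, none of which passed. Dnajc22, a membrane J-domain protein that was given no compartment here, stood at -1.07 and -0.92 in JA, -0.95 and -1.32 in JB, and -1.10 and -0.93 in Amy. It fell to -1.05 ± 0.08 (adjusted p = 0.00189), nearly alike in the 3 lines.

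Among the protein disulfide isomerases, 1 of 3 fell, where 32.0% of named genes did, and the others did not pass. Pdia5 was the lowest of all members: -2.53 and -3.33 in JA, -0.15 and -3.33 in JB, and -2.11 and -2.60 in Amy. All but the JB array in Cy3 lay below -2.1. On that array both spots held -0.15, the exact value shared by 166 spots of the array. The mean was -2.34 ± 0.59 (adjusted p = 0.00163), so the pool exceeded the lines 5.07-fold. With spots at widely shared values left out, JB rested on its Cy5 array alone and the mean was -2.87 (adjusted p = 9.17e-04). Pdia3 (ERp57), the partner of calreticulin, stood at 0.14 and 0.09 in JA, 0.39 and 0.54 in JB, and -0.17 and -0.27 in Amy, with JB highest, Amy below 0 and a mean of 0.12 ± 0.34 (adjusted p = 0.569). Pdia6 averaged -0.18 ± 0.25 (adjusted p = 0.323). Of other thioredoxin-fold proteins, P4hb, the founding disulfide isomerase and a subunit of collagen prolyl hydroxylase, fell to -0.96 ± 0.22 (adjusted p = 0.00398). Erp44, which retains ER oxidases and assembling immunoglobulins, rose to 1.15 ± 0.90 (adjusted p = 0.0378), although JB (0.13) was far below JA (1.54) and Amy (1.79).

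The ER set shares DNA elements through which the unfolded protein response acts, so the promoters of the members (250 bases before to 50 after the start, RefSeq, GRCr8) were searched on both strands. A promoter was found for 27 of the 35 members. The ER stress element, searched as CCAAT and CCACG with any 9 bases between them, was present in 2 of the 27, Calr and Hsp90b1 (7.41%, against 0.0765% of 27457 promoters of all genes). The shorter ER stress element II, ATTGG and CCACG with any 1 base between them, was in another 2, Dnajb11 and Hyou1 (7.41%, against 0.0546%). A heat shock element, searched as GAA, TTC and GAA with any 2 bases between neighbours, or its reverse complement, was in Hspd1 only (3.70%, against 0.736%). The CCAAT box alone, which is part of both ER stress elements (reversed, as ATTGG, in element II), was in 13 of the 27 (48.1%, against 37.7%). Members with these elements were drawn from known stress genes by their names, so the excess is no finding of these arrays. Dnajb11 and Hyou1, which share ER stress element II, lay on different sides of the pool. The stretches that hold an ER stress or heat shock element are given 5′ to 3′ on the strand of the gene, with the matched letters in capitals:
Hsp90b1 (GRCr8 chr7:23012317-23012499, minus strand): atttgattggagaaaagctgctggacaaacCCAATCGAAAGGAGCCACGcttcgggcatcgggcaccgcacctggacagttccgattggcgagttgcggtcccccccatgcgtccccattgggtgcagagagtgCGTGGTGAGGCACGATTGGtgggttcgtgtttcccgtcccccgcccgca
Calr (GRCr8 chr19:40213117-40213183, plus strand): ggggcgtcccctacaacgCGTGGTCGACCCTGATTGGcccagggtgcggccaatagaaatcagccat
Dnajb11 (GRCr8 chr11:91672776-91672840, minus strand): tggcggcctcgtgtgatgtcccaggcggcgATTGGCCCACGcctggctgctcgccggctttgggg
Hyou1 (GRCr8 chr8:53602664-53602834, plus strand): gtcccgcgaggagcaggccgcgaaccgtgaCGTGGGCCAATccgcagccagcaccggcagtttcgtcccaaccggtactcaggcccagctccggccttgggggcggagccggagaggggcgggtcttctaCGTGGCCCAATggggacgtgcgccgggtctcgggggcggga
Hspd1 (GRCr8 chr9:64084232-64084287, minus strand): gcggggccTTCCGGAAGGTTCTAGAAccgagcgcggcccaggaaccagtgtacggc

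Hsp90b1 carries the first element at -176 to -158 and again, reversed, at -72 to -54 from the start, and Calr carries it reversed at -232 to -214. Hsp90b1 passed as higher and Calr, at 0.08 ± 0.47, did not pass. ER stress element II spans the start of Dnajb11 (-10 to 1) and occurs reversed at -188 to -178 and -88 to -78 in Hyou1. Dnajb11 was higher at 0.91 ± 0.42 and Hyou1 lower at -0.49 ± 0.27, with no overlap between their arrays. In Hspd1, overlapping matches form the run from -242 to -225. The 4 genes with an ER stress element of either kind thus held 2 that rose, 1 that fell and 1 that did not pass. Over named genes 23.1% were higher and 32.0% lower, and 4 genes are too few to set against those shares. The call of Hyou1 also ended with any 1 of the lines left out. A match describes the sequence and shows no binding.

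The lines were also compared with each other by their signed ratios, where the pool cancels because every line was set against it. For a member below the pool, the highest ratio is the one nearest the pool, so these counts do not measure distance from it. JA had the highest ratio of the 3 lines for 20 of 35 members (57.1%), against 33.6% of named genes, and Amy the lowest for 16, against 38.4%. JA exceeded Amy in both dye orientations for 24 members, against 38.8% of named genes. The median difference, JA minus Amy, was 0.26 over the members and 0.04 over named genes. JB exceeded Amy in both orientations for 14 of 35 members, which is near the share over named genes (39.9%). JA exceeded JB for 19 of 35 (37.0% of named genes). Line medians of the members were 0.19 in JA, -0.02 in JB and -0.09 in Amy. No test was made, since each line is 1 sample.

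By the mean over both dye orientations, the widest gap between JA and Amy was that of Hspd1, 0.86 in Cy3 and 0.86 in Cy5. Dnajb11 followed with 1.08 and 0.597, Calr with 1.04 and 0.597, Hspa13, an ER-associated Hsp70-like ATPase, with 0.63 and 0.71, and Hspa4 with 0.64 and 0.69. On the other side, Bag6 was lower in JA than in Amy by 0.36 and 0.88 and Pdia5 by 0.41 and 0.73. No member set 1 line apart from both others by at least 1 in each dye orientation, nor by 0.75; 3.07% of named genes did so at 1. For 4 members (11.4%, against 11.5% of named genes) the arrays of 1 line were all above 0 and those of another all below.

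**Figure D3:**
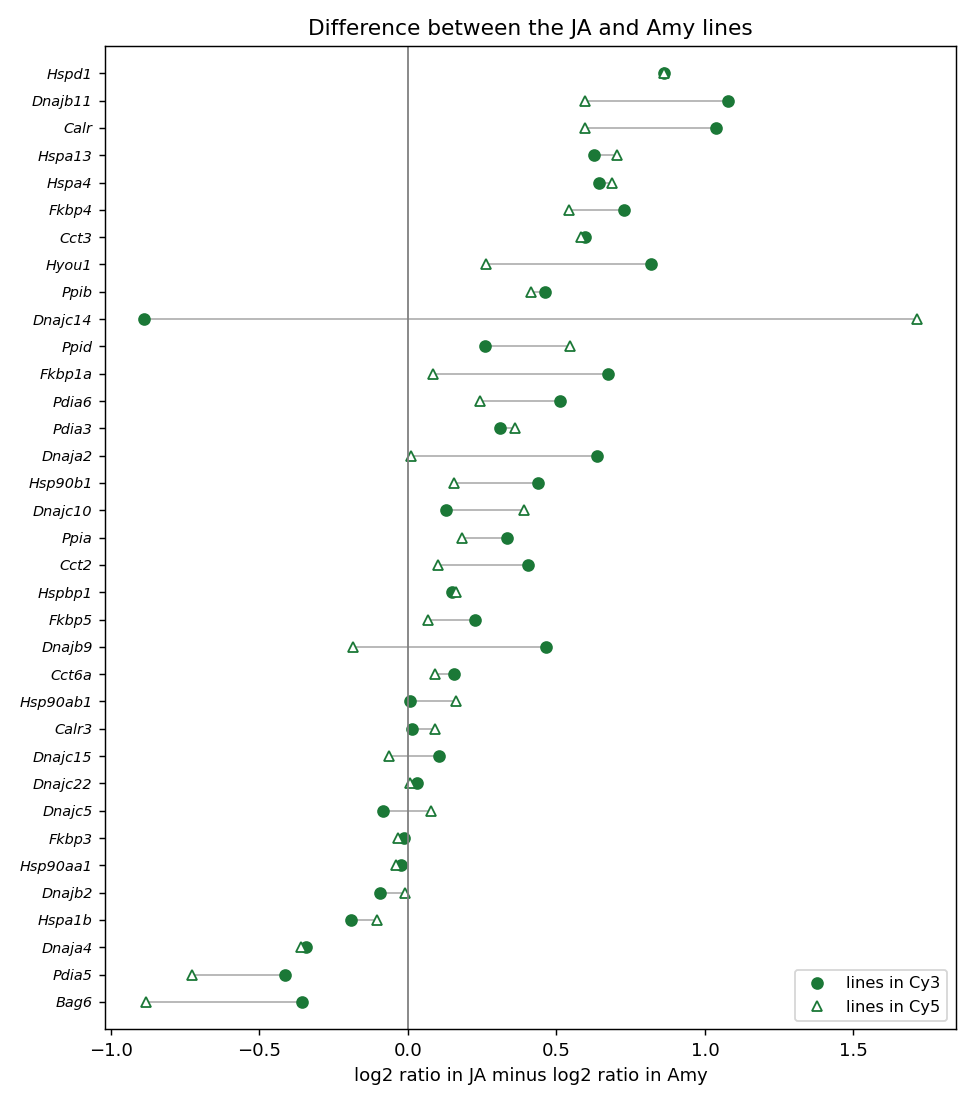
Difference of log2 ratios, JA minus Amy (x axis), for each member, with both lines in Cy3 (filled circles) or both in Cy5 (open triangles). In 24 of the 35 members both marks lie to the right of 0, and Dnajc14 has the widest gap between its marks.

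Agreement between the dye orientations bears on each of these values. By the mean over clones, the 2 arrays of a line differed by more than 1 for 4 members, Dnajc10, Dnajc14, Fkbp3 and Pdia5. Single clones of Hspd1, Cct6a and Hsp90aa1 also did so. In JB, 1 clone of Hspd1 read 2.96 in Cy3 and 1.25 in Cy5, and the other leaned the opposite way (0.82 and 1.78). In JA, 1 clone of Cct6a read 1.59 and 0.03, and 1 of Hsp90aa1 read -1.32 and 2.22. Fkbp3, a nuclear isomerase, stood at 0.26 and 0.14 in JA, -2.97 and 0.96 in JB, and 0.27 and 0.18 in Amy. On the JB array in Cy3 its spots held -2.47 and -3.47, which lie -2.32 and -3.32 from the most common value of that array. These are whole-number ratios, 5-fold and 10-fold below that value. Without that array Fkbp3 averaged 0.46 (adjusted p = 0.107) in place of -0.19 ± 0.70. Dnajc14 stood at -0.60 and 1.92 in JA, -1.19 and -0.69 in JB, and 0.29 and 0.20 in Amy, and its second spot on the JA array in Cy5 read 3.92 while the first read -0.08, the most common value of that array. Dnajc10 averaged 0.22 over the Cy3 orientation and -0.91 over the Cy5 orientation, with opposite signs in JA and JB. Of the 4 members whose means differed by more than 1, only Pdia5 passed. Fkbp3, Dnajc14 and Dnajc10 each had means of opposite sign in the 2 orientations.

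**Figure D4:**
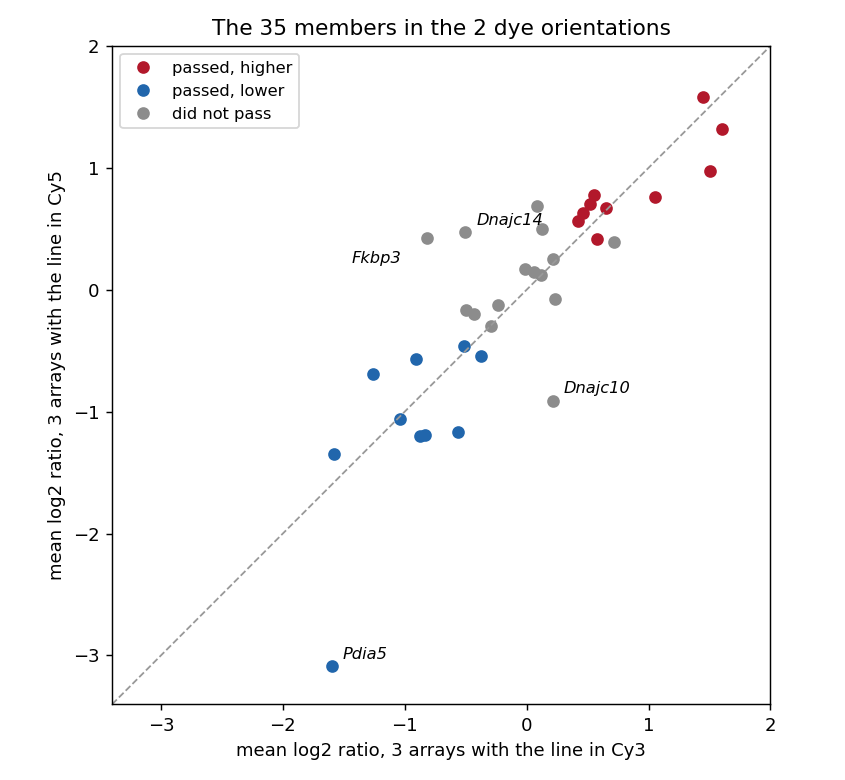
Mean log2 ratio of each member over the 3 Cy5-labelled line RNAs (y axis) against the 3 Cy3-labelled ones (x axis); red and blue points passed as higher and lower, grey points did not pass, and the dashed line marks equal values. The 4 named members, whose 2 arrays differed by more than 1 in at least 1 line, lie farthest from the dashed line, and of them only Pdia5 passed.

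Folding genes with other names were taken from a list of 58, of which 15 were measured. Of these 6 rose, 2 fell and 7 missed the threshold, against 23.1% higher and 32.0% lower over named genes; their median was 0.32. Beside Tcp1, Pfdn6, P4hb and Erp44, Tomm34, a cochaperone of mitochondrial import, rose to 1.08 ± 0.32 (adjusted p = 0.00455) and Sel1l, an adaptor of ER-associated degradation, to 0.89 ± 0.12 (adjusted p = 0.00343); the tubulin cofactor Tbca rose to 0.36 ± 0.04 (adjusted p = 0.0447). The small heat shock protein Cryab fell to -0.49 ± 0.24 (adjusted p = 0.035). Of 18 regulators of the heat shock and unfolded protein responses, 4 were measured. All 4 were called, 3 higher and 1 lower. Over named genes 23.1% were higher and 32.0% lower, or 55.1% in either direction. Heat shock factor 2 (Hsf2) rose to 0.63 ± 0.38 (adjusted p = 0.0332) and Ppp1r15a (Gadd34), which restores translation after stress, to 1.28 ± 0.57 (adjusted p = 0.00827), with JB highest at 1.93. Atf4, a transcription factor of the stress response, rose to 1.29 ± 0.55 (adjusted p = 0.00747), although its JA arrays read 1.01 in Cy3 and 2.52 in Cy5. The Atf4 target Ddit3 (Chop) fell to -1.36 ± 0.20 (adjusted p = 0.00137).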

How the data were processed

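The 6 arrays gave 16128 log2 ratios each with no missing value. Per the labels, every array held 1 tumor line and the normal pool in different dyes. The deposited values are log2 ratios; scanner, background correction and normalization are not given in the sources used here. Spot intensities were not analysed. The base was settled from exactly tied values (tolerance 1e-06). The direction, line over pool, follows the sample titles. Of the spots, 8084 had 1 gene symbol in the platform annotation, 40 several and 8004 none; 34 members matched RefSeq (GRCr8) by gene identifier, and Hspa1b did not.

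Spots were averaged per gene, or per clone where unnamed, giving 7180 features. Both arrays of a line compare the same extracts with dyes exchanged, so they were averaged. Whether the 3 line values differed from 0 was tested two-sided in limma 3.58.1 (lmFit, then eBayes; R 4.3.3), with Benjamini-Hochberg adjustment over all features at 0.05. The pool counts as 1 control sample whose own spread is left out. Number of arrays and lines limits the precision. No filter on low values was applied, so all 35 members were tested. Across features, the dye-swapped arrays of JA had a correlation of 0.844, those of JB 0.815 and those of Amy 0.888. Replicate numbers are the dye orientations of the labels; the difference between orientations correlated between lines at 0.613, 0.552 and 0.526, so the numbers pair the arrays.

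Members, compartments and lists were chosen with earlier results of these data known. Values on every array are given for members that passed with a mean of at least 1 either way for the highest and lowest of each compartment and, chosen after their values were seen, for Fkbp3 and Dnajc14, whose dye orientations disagreed; other members are given by mean ± SD over the 3 lines. Other folding genes and regulators were named where they passed with 1 sign on all 6 arrays; Cryab, Erp44, Pfdn1 and Pfdn2 were added after their values were seen. Alternatives covered array scaling, blocks for line and dye, single dye orientations, a spread for the pool, other variance estimates, clone medians, stricter thresholds, and lines, arrays or widely tied spots left out. Plots were made in matplotlib 3.10.9 under Python 3.11.15. C-terminal tails of the proteins were not analysed here.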

Additional observations from a re-analysis of the deposited data

Results flagged for a closer look

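For 4 members the 2 arrays of 1 line lay above 0 and the 2 arrays of another line below it. These differences between lines were not tested. Calr was above the pool in JA alone, exceeding JB by 0.82 (JA minus JB, 0.8159 before rounding) and Amy by 0.82 (0.8175). Hspa13 was above it in JA, by a margin under 0.05 on both arrays, and JA exceeded JB by 0.32 and Amy by 0.67. Pdia3 was below the pool in Amy alone, with JA minus Amy at 0.33 and JB minus Amy at 0.69. Dnajc14 gave JB minus Amy at -1.19, but its spots disagreed widely within arrays. All its Amy spots held values shared by at least 10 spots of the array (-0.0046 and 0.58 in Cy3, -0.09 and 0.49 in Cy5).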

How the results depend on the processing

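Of the 20 members called, 4 (Cct6a, Dnaja4, Dnajc15 and Dnajc22) kept their call and direction under all 25 alternatives, and no called member changed sign under any of them. With each line left out in turn, Bag6, Dnajb9, Hspa1b, Hspd1, Pdia5 and Ppia also kept their calls. The counts over all members were 3 to 9 higher and 7 to 10 lower with a line left out, and 7 to 11 and 8 to 11 with an array left out. With the pool given the variance of a mean of 2 lines, 3 members were higher; without moderation of the variances 1 was higher and 4 lower; at an adjusted p under 0.01, 4 were higher. In the cytosol and nucleus, 6 higher became 2 with a pool variance, 1 without moderation and 3 at 0.01, and 2 to 6 with a line left out; 4 lower became 1 without moderation. In the ER, 3 higher became 0 with a pool variance, 0 without moderation, 0 at 0.01 and 1 with a mean of at least 0.5 required, and 0 to 3 with a line or array left out; 4 lower became 2 in Cy3 only, 2 with a pool variance, 1 without moderation, 2 at 0.01 and 2 with a mean of at least 0.5, and 2 to 5 with a line or array left out. In mitochondria, 1 higher became 0 without moderation. The 0.01 and 0.5 thresholds and the pool variance are stricter by construction. Without moderation the means stay the same and only the variance estimates change, and a fit with a line left out rests on fewer values. Beyond that, the cause of the changes was not tested. The median of the members lay between -0.19 (without JA) and 0.12 with a line or array left out. Fitted on 6 arrays with dye orientation as a block, 12 members were higher and 11 lower, and with line as a random block besides, 11 and 10; the first fit changed the calls of Cct3, Hsp90aa1 and Fkbp1a, the second that of Fkbp1a, and neither changed another call. The highest line was JA for 17 to 21 members and the lowest Amy for 14 to 18 under other scalings, single dyes and spots at tied values left out, settings added after the data were seen.

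Sign changes occurred only in members that did not pass: Calr at -0.0745 in Cy5 only, -0.19 without JA and -0.0060 without the JA array in Cy3; Dnajc10 at 0.22 in Cy3 only; Dnajc14 at 0.10 with centred arrays, 0.0085 with quantile normalization, 0.47 in Cy5 only, 0.45 without JB, and 0.41, 0.07 and 0.0003 without 1 array (range -0.43 to 0.45 with a line or array left out); Dnajc5 at -0.0047 without JB (range -0.0047 to 0.16); Pdia3 at -0.0527 without JB (range -0.0527 to 0.29); Fkbp3 at 0.43 in Cy5 only, 0.21 without JB and 0.46 without its Cy3 array (range -0.85 to 0.46); Hspbp1 at -0.0149 in Cy3 only. The cause was not tested.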
